A study of Arabidopsis thaliana with 35 samples.

Results

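The mitochondrion-encoded genes of *Arabidopsis thaliana* were taken as every gene of the count tables whose identifier starts with ATMG. These were 152 of 32833 genes. Of the 152, 73 had at least 10 counts summed over the 35 libraries and were kept, 26 had fewer counts and 53 had none. Together the 152 genes held 126118 counts, of which 118 lay in the genes that were not kept. The count tables carry identifiers without gene names, and the annotation used here pairs 53 of the 152 identifiers with a nuclear copy on chromosome 2 and its description. The other identifiers are therefore given without a name or a role.

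Libraries were made from 7-day-old seedlings of 3 lines. The *er* XVE:ER line is an *er* mutant that carries an estradiol-inducible *ERECTA* (*ER*), a receptor kinase gene, and its 35S promoter drives the inducible system throughout the plant. The XVE:EPFL4 line is a wild type that carries an inducible *EPFL4*, which encodes a small secreted peptide of the family perceived by ER. WT seedlings carried no transgene. Each line was sampled uninduced, on mock plates labelled 0 h, and after 3 h and 8 h on plates with 5 mM 17-β estradiol, with 4 libraries per condition except for *er* XVE:ER at 3 h, which had 3. Each library pooled several seedlings of the line. The labels give the mock plates as 0 h, whereas the methods of the study describe mock plates kept for 3 h, so whether the 3 h groups also differed from the uninduced ones in time is not settled. At 8 h estradiol and time cannot be told apart within a line. WT seedlings received estradiol too and have no gene for it to induce.

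The mitochondrial genome of a plant encodes a small set of proteins, mainly core subunits of the respiratory complexes and of the ATP synthase, factors for cytochrome *c* maturation and ribosomal proteins, together with ribosomal RNAs, transfer RNAs and many open reading frames of unknown function. Most subunits of the same complexes are encoded in the nucleus. Plant mitochondrial transcripts mostly lack stable poly(A) tails, and a tail added to them tends to mark the RNA for decay, so an mRNA-seq library holds only a small part of them. In *Arabidopsis* a long stretch of mitochondrial DNA has also been copied into chromosome 2, close to the centromere.

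The extent of this nuclear copy bears on every count below, so it was measured on the RefSeq TAIR10.1 assembly. Whether this assembly holds the whole nuclear copy was not tested. Of the 367659 windows of 150 bases in its mitochondrial genome, 65.1% occurred without any difference in a nuclear chromosome. On chromosome 2 such matches (240255 positions) lay within chr2:3239166-3509765, and shorter stretches lay at chr1:24272590-24276426 (2771 positions) and chr4:413690-414000 (162 positions). By their RefSeq gene symbols, *cox1*, *cox2*, *nad9*, *ccmB*, *nad4L*, *atp4* and the ribosomal RNA genes *rrn18* and *rrn26* had no such window, whereas every window of *atp1*, *atp8*, *atp9*, *cob*, *cox3*, *ccmC*, *nad3*, *nad6*, *rps4*, *rps7* and *rps12* had one. RefSeq notes pair 53 ATMG identifiers with 55 nuclear genes, all on chromosome 2. These nuclear genes matched the mitochondrial genome at a median identity of 100% and a lowest identity of 99.03%, and 27 of the 55 were identical to it over their whole length.

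Stretches of 61 bases from 3 of these pairs are shown because they show how few bases separate the mitochondrial DNA from its nuclear copy. They come from RefSeq TAIR10.1, in the direction of chromosome 2, with differing bases in capitals and positions counted from 1 at the left end. The first pair is AT2G07715 (chr2:3411669-3411729), noted as a nucleic acid-binding, OB-fold-like protein and paired with ATMG00560. The mitochondrial stretch is 222061 to 222121 on the minus strand. The differences T31C and T32C give the nuclear base first, and the whole gene holds 4 differences.
AT2G07715 nuclear: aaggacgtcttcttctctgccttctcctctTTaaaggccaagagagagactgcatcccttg
AT2G07715 mitochondrial: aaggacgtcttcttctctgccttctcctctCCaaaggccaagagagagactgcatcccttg
AT2G07698 (chr2:3361898-3361958), the copy of ATP synthase subunit 1 paired with ATMG01190, holds 1 difference in 2665 bases, T31C in the stretch (mitochondrial 69168 to 69228, minus strand). RefSeq places *atp1* at 67098 to 68621 of the mitochondrial genome, so this stretch lies outside it. Every window of *atp1* itself occurred in a nuclear chromosome without a difference.
AT2G07698 nuclear: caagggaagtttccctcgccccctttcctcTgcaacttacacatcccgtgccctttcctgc
AT2G07698 mitochondrial: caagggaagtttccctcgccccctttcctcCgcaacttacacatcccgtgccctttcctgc
AT2G07727 (chr2:3451125-3451185), the copy of apocytochrome *b* paired with ATMG00220, is identical to the mitochondrial genome over all 3243 bases. The DNA sequence alone therefore does not separate the copies there. Whether transcripts differ from the DNA was not tested.
AT2G07727 both: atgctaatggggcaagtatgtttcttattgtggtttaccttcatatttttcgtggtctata

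The counts of these pairs were split in every way. ATMG00220 (apocytochrome *b*) had 0 counts in all 35 libraries, and its identical copy AT2G07727 had 92. ATMG01190 (ATP synthase subunit 1) had 9 counts against 672 in AT2G07698, whereas ATMG01090 (noted as ATP synthase 9) had 818 against 10 in AT2G07777. That pair rests on the RefSeq note, as its best alignment to the mitochondrial genome covered 59.3% of the nuclear gene. ATMG01080, also noted as subunit 9 of the ATP synthase, had 27 counts against 18 in AT2G07671, a copy identical over its whole length. ATMG00560 had 253 counts and AT2G07715 had 802. Of the 46 nuclear copies that are listed in the count tables, 22 had more counts than their ATMG partner, and together the 46 held 3480 counts. Identity was judged over the whole nuclear gene, with the closest copy taken for each ATMG gene. By this, 8 of the 27 genes with an identical copy reached 10 counts, and so did 14 of the 26 genes whose copy differed. A copy that differed elsewhere could still leave every window of the mitochondrial gene matched, as for *atp1* and *rps4*. The split therefore does not sort ATMG genes by whether their reads can be placed. The rule by which reads that match in several places were counted is not given in the sources used here, and whether reads moved between the copies was not tested.

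**Figure D1:**
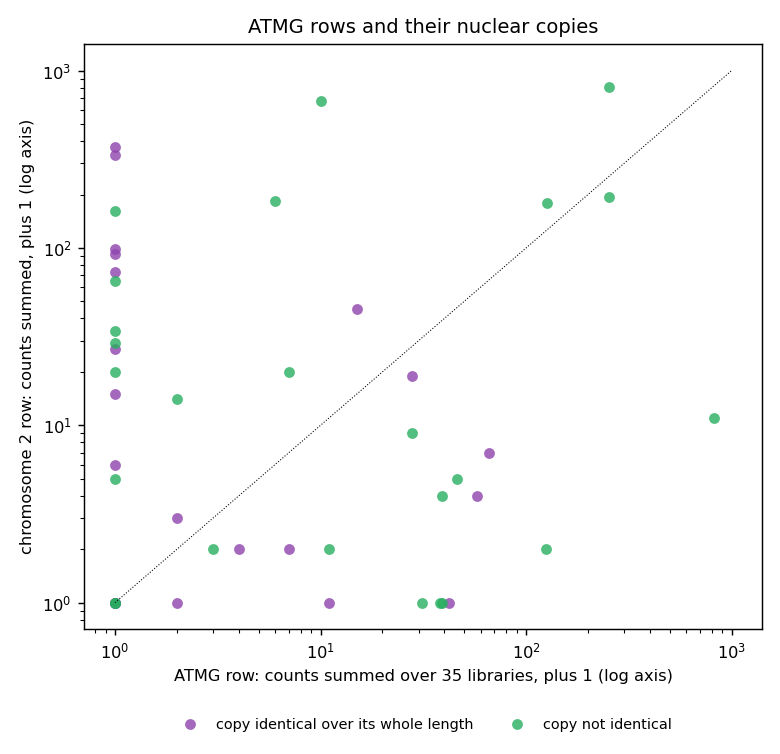
Counts of ATMG genes (horizontal) and of their listed chromosome 2 copies (vertical), each summed over the 35 libraries plus 1 on log axes, 1 point per pair (purple for a copy identical over its whole length, green for others), with the dotted line at equal counts. Points lie far to both sides of the line, as for ATMG01090 (818 counts against 10) and ATMG01190 (9 counts against 672), and 22 of 46 copies lie above it.

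The libraries held 18224765 to 25089853 counts each. *ER* stood at 1092 ± 393 CPM (counts scaled to a library total of 1000000) in *er* XVE:ER at 8 h (SD, n = 4) and at 358 ± 95.05 CPM at 3 h (SD, n = 3), against 50.9 ± 9.94 CPM uninduced (SD, n = 4). Uninduced WT seedlings had 73.5 ± 10.1 CPM (SD, n = 4). Whether the *ER* reads of uninduced *er* XVE:ER came from the mutant allele or from the transgene was not tested. *EPFL4* stood at 1878 ± 1086 CPM in XVE:EPFL4 at 8 h and 1308 ± 317 CPM at 3 h, against 2.42 ± 0.803 CPM uninduced (SD, n = 4 each), and uninduced WT seedlings had 0.653 ± 0.111 CPM. The summed CPM of 4 leaf markers lay between 14942 and 28969, and that of 4 root markers between 8.18 and 54.9. A chi-square per degree of freedom over all genes between libraries of a group reached 96.5 in uninduced *er* XVE:ER and 56.5 in WT at 3 h, where replicate 4 stood apart in each, and 79.6 to 90.9 in the 8 h groups. The ATMG shares, the ATMG calls and the calls of named nuclear genes were recomputed with single libraries left out.

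ATMG genes took 123 to 285 CPM, with a median of 166 CPM over the 35 libraries. This rested on 2555 to 5843 counts per library, so that counting error was small beside the differences between libraries: the 95% Wilson interval was 277 to 293 CPM for the highest library and 118 to 127 CPM for the lowest. Such intervals cover counting error only. Most of the share came from 3 genes. ATMG01390 held 56047 counts, 44.4% of all ATMG counts, and ATMG00020 held 49403. These 2 genes together made up 83.6% of the ATMG counts, and with ATMG00030 (5074 counts) the 3 genes made up 87.6%. None of these 3 is paired with a nuclear gene in RefSeq notes. ATMG00660 followed with 1193 counts, 0.946% of the ATMG counts. As counts were not divided by gene length, this order is one of reads and not of transcript levels.

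The other 149 genes shared 15594 counts. Of the 73 kept genes, 25 had a count in every library, and the median kept gene had 2 counts per library. The number of ATMG genes with any count was 42 to 67 per library. It was lowest in uninduced XVE:EPFL4, at 42, 50, 52 and 48 genes, against 60, 67, 65 and 59 genes in uninduced WT. The 53 genes with a noted nuclear copy held 1.96% of the ATMG counts, with a median of 5 counts per gene, against a median of 13 counts for the 99 genes without a note.

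The groups overlapped in every comparison of the ATMG share between lines or times, with 1 exception. In *er* XVE:ER the ATMG share was 148, 145 and 142 CPM at 3 h, against 188, 195, 198 and 183 CPM in uninduced seedlings. All 3 induced libraries lay below all 4 uninduced ones, and the ratio of the means was 0.76, or 0.75 to 0.77 with any of the 7 libraries left out. At 8 h the same line had 264, 128, 134 and 158 CPM. Replicate 1 alone lay above the uninduced range there, and the ratio to the uninduced mean was 0.90 with it and 0.73 without it.

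In XVE:EPFL4 the share was 169 ± 16.6 CPM uninduced, 159 ± 10.2 CPM at 3 h and 158 ± 30.2 CPM at 8 h (SD, n = 4 each), and the 3 groups overlapped. In WT it was 197 ± 30.6 CPM uninduced, 189 ± 68.3 CPM at 3 h and 170 ± 25.2 CPM at 8 h (SD, n = 4 each), also with overlap. The wide spread of WT at 3 h came from replicate 4, which at 285 CPM was the highest library of all, beside 134, 147 and 190 CPM in the other replicates. Without it the ratio of WT at 3 h to uninduced WT was 0.80 in place of 0.96. Between lines at the same time the groups overlapped in all 6 comparisons, with ratios to WT between 0.77 and 1.01. As a sum over the members this share was not tested.

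**Figure D2:**
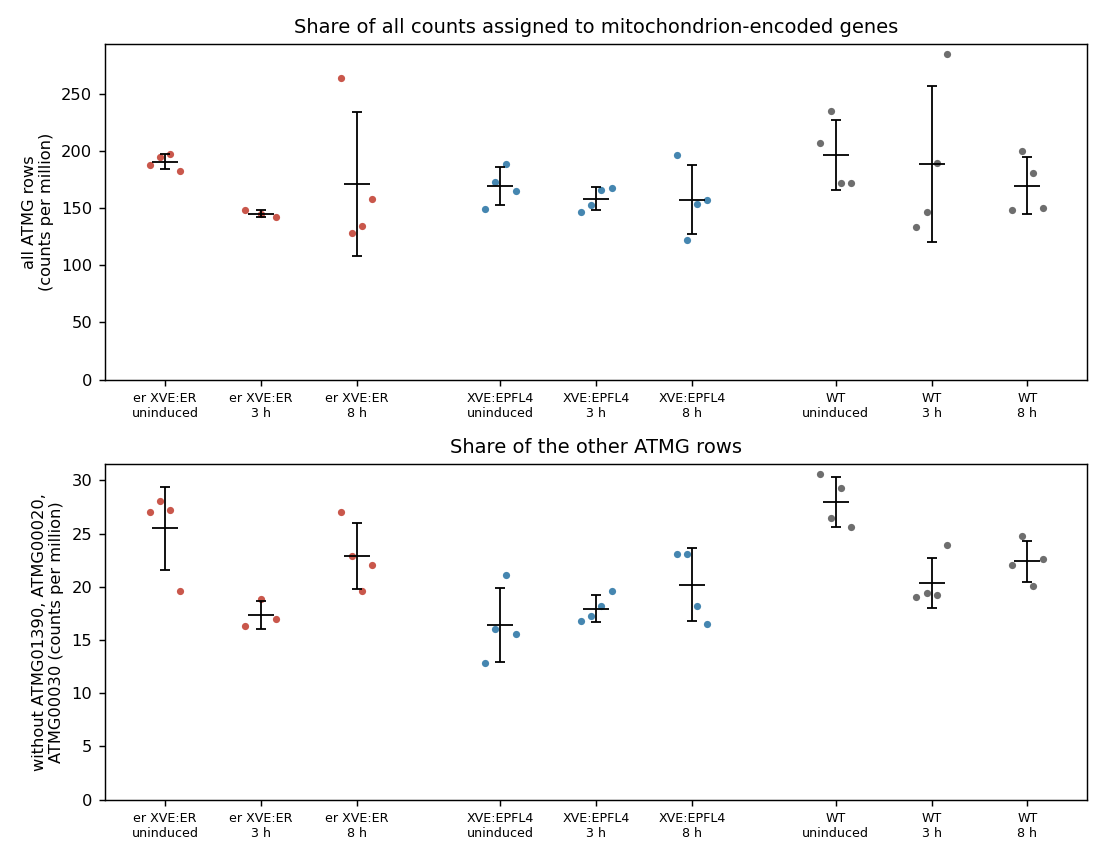
Share of all counts assigned to ATMG genes (top) and to ATMG genes other than ATMG01390, ATMG00020 and ATMG00030 (bottom), in CPM of all counts, for *er* XVE:ER, XVE:EPFL4 and WT. Points are libraries, and bars give the mean and SD of 3 or 4 libraries. *er* XVE:ER at 3 h lies below its uninduced group in both panels, and uninduced XVE:EPFL4 (12.8 to 21.1 CPM) lies below uninduced WT (25.6 to 30.6 CPM) in the lower panel.

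The 149 genes outside the leading 3 were summed separately. Their summed share was 16.3, 18.8 and 16.9 CPM in *er* XVE:ER at 3 h, against 27.1, 28.0, 27.2 and 19.6 CPM uninduced. Uninduced replicate 4, which also stood apart over all genes, was the lowest of its group but above the induced range. At 8 h the sum was 22.9 ± 3.08 CPM against 25.5 ± 3.92 CPM uninduced (SD, n = 4 each), with overlap and a ratio of 0.90. In WT the sum was 19.0, 19.4, 19.2 and 23.9 CPM at 3 h and 22.1, 24.7, 20.1 and 22.6 CPM at 8 h, against 30.6, 26.4, 29.3 and 25.6 CPM uninduced, so that neither induced group overlapped with the uninduced one. At 3 h *er* XVE:ER also lay below WT without overlap, at a ratio of 0.85. Uninduced XVE:EPFL4 had 12.8, 16.0, 21.1 and 15.6 CPM and did not overlap with uninduced WT either, at a ratio of 0.59. The means of this line were 18.0 ± 1.27 CPM at 3 h and 20.2 ± 3.40 CPM at 8 h (SD, n = 4 each), which overlapped with its uninduced group.

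The chloroplast genes moved beside this sum in part of the comparisons. In *er* XVE:ER they stood at 255 ± 21.5 CPM at 3 h (SD, n = 3) against 352 ± 66.5 CPM uninduced (SD, n = 4), with overlap. They stood at 300 ± 47.9 CPM in uninduced XVE:EPFL4 against 419 ± 97.3 CPM in uninduced WT (SD, n = 4 each), with overlap. In WT they stood at 259 ± 43.6 CPM at 3 h and 255 ± 11.8 CPM at 8 h (SD, n = 4 each), without overlap with the uninduced group. In XVE:EPFL4 at 8 h they stood at 217 ± 17.1 CPM against 300 ± 47.9 CPM uninduced (SD, n = 4 each), without overlap and at a ratio of 0.72, while the sum of the 149 ATMG genes stood at a ratio of 1.23 in that comparison, with overlap. Counts of the nuclear copies on chromosome 2 were 3.29 ± 0.767 CPM in uninduced XVE:EPFL4 and 5.82 ± 0.975 CPM in uninduced WT (SD, n = 4 each), also without overlap. Whether organelle content, RNA priming or read placement lay behind these values was not tested. In whole seedlings, fewer mitochondria and less RNA per mitochondrion cannot be told apart.

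The balance between the 2 leading genes varied between libraries. The ratio of ATMG00020 to ATMG01390 counts ran from 0.68 to 1.43. It was 0.753 ± 0.119 uninduced, 0.736 ± 0.050 at 3 h (n = 3) and 1.08 ± 0.258 at 8 h in *er* XVE:ER (SD, n = 4 unless given). In XVE:EPFL4 it was 0.833 ± 0.113 uninduced, 0.756 ± 0.0215 at 3 h and 0.999 ± 0.138 at 8 h, and in WT 0.909 ± 0.127, 0.864 ± 0.127 and 1.01 ± 0.256 in the same order (SD, n = 4 each). The 8 h mean was the highest of the 3 in every line, and the 8 h libraries lay above all 3 h libraries in *er* XVE:ER and in XVE:EPFL4, while those of WT overlapped. The ratio of ATMG00030 to ATMG00020 counts also varied, from 0.0800 to 0.141 over the libraries.

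Single genes were tested with edgeR's quasi-likelihood test, fitted to all genes with enough counts and adjusted over them by the Benjamini-Hochberg method. A change was called at an adjusted p under 0.05. Because most members had few counts, only 16 to 24 of the 73 kept genes passed the filter in a pairwise comparison, 15 passed in all 12 and 47 in none. A member that passed through its higher group alone could only appear as a difference, so the numbers of members with at least 10 counts in every library of a group are given as well. In all, 8 members were called, in 10 tests spread over 4 of the 12 pairwise comparisons, each time as lower. The calls in WT at 3 h and 8 h and in uninduced XVE:EPFL4 against WT share the same uninduced WT libraries. They are therefore not independent of each other. Except for ATMG00650 in *er* XVE:ER at 3 h and ATMG01360 in WT at 8 h, each call was lost in at least 1 of the other fits to the same libraries or to all 35, with adjusted p up to 0.212.

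**Figure D3:**
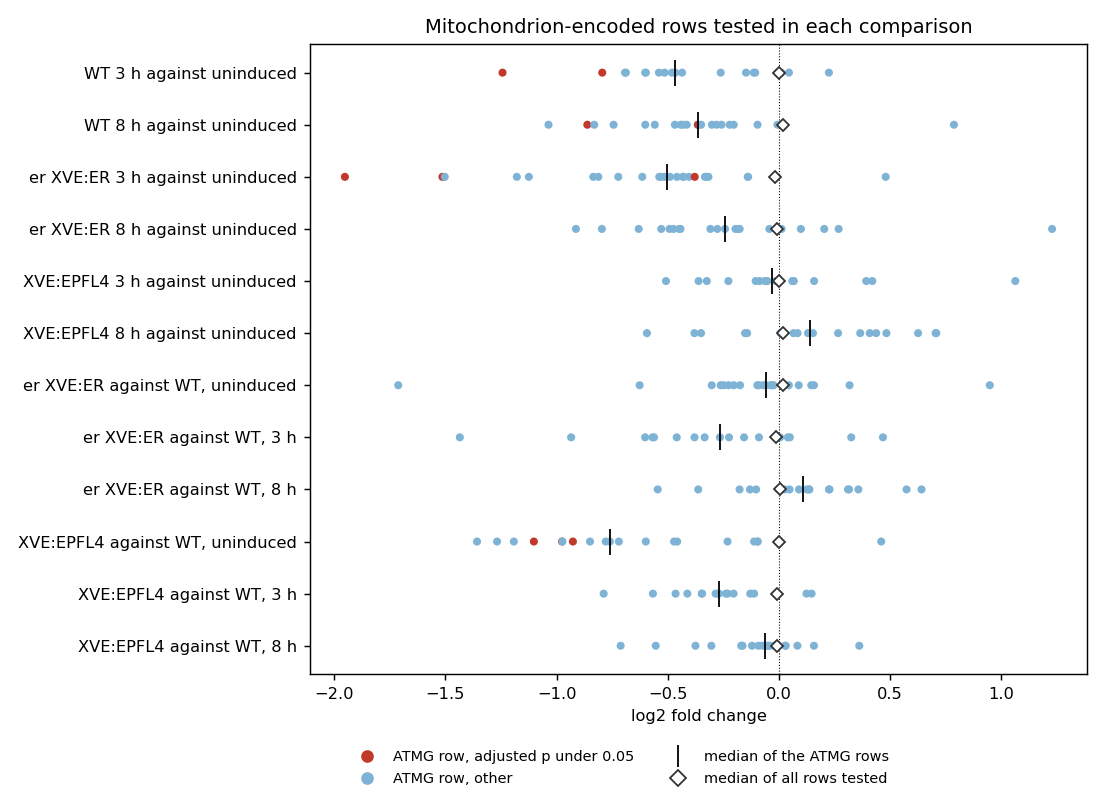
Log2 fold change of each ATMG gene that passed the filter in the 12 pairwise comparisons, 1 point per gene, red at an edgeR adjusted p under 0.05. Upright bars mark the median of the ATMG genes and diamonds the median of all genes tested, which lay between -0.02 and 0.02. The ATMG median was lowest in XVE:EPFL4 against WT, uninduced (-0.76).

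In *er* XVE:ER at 3 h, 3 of the 24 members tested were lower than in the uninduced group and none higher. This is 12.5% of the members, against 16.3% of all 20223 genes tested and 7.87% that were called lower. Without uninduced replicate 4, which stood apart, 5 members were called. The lowest adjusted p was that of ATMG00650, with 9, 5 and 6 counts at 3 h against 13, 17, 22 and 17 counts uninduced. No 3 h library reached 10 counts, so that it passed the filter through uninduced libraries alone and could only appear as lower. The groups did not overlap, and it was 0.311 ± 0.0895 CPM (n = 3) against 0.896 ± 0.153 CPM (n = 4, SD) after scaling by the trimmed mean of M-values (TMM). It was lower by a log2 fold change of -1.51 ± 0.32 (SE), with an edgeR adjusted p of 0.00781 and an exact permutation p of 0.0286, the smallest that 3 against 4 libraries can give. It was the only call of all 10 that held without any 1 library and in every alternative fit, among them the fit without the filter (adjusted p = 0.0128).

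ATMG01390, the gene with the most counts, had 1531, 1437 and 1554 counts at 3 h and 1721, 1779, 2006 and 1524 counts uninduced. Scaled, this was 70.7 ± 2.59 CPM (n = 3) against 91.5 ± 5.84 CPM (n = 4, SD), without overlap, and the log2 fold change was -0.38 ± 0.10 (SE, edgeR adjusted p = 0.0218). The call was lost without uninduced replicate 3 (adjusted p = 0.0551) and without induced replicate 1, 2 or 4 (adjusted p = 0.0754, 0.0612 and 0.0861). ATMG00560, the gene whose chromosome 2 copy differs from the mitochondrial genome at 4 bases, had 2, 3 and 6 counts against 16, 17, 14 and 5 counts. Its log2 fold change was -1.95 ± 0.60 (SE, edgeR adjusted p = 0.0452), and the scaled values did not overlap, though the lowest uninduced library, replicate 4, stood at 0.274 CPM against 0.263 CPM in the highest induced one. That call was lost without uninduced replicate 1, 2 or 3 (adjusted p = 0.0940, 0.0975 and 0.0784) or induced replicate 1, 2 or 4 (adjusted p = 0.165, 0.138 and 0.0688), with uninduced WT left out of the fit (adjusted p = 0.0608) and without the filter (adjusted p = 0.0599), which it too had passed through uninduced libraries alone.

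ATMG00020 and ATMG00030 pointed the same way in this comparison without passing the test. ATMG00020 had a log2 fold change of -0.40 ± 0.15 and ATMG00030 one of -0.46 ± 0.19 (SE), with edgeR adjusted p of 0.0924 and 0.121. Neither overlapped between the groups. In all, 23 of the 24 members had a log2 fold change under 0, against 51.9% of all genes, with a median of -0.50 against -0.02 over all genes, and 6 of 24 were lower without overlap, against 13.9% of all genes. Of the 24, 13 had at least 10 counts in every induced library and 16 in every uninduced one.

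The 8 h libraries of *er* XVE:ER gave no call among 21 members, against 16.2% of all 19824 genes tested. By edgeR 2 members had an unadjusted p under 0.05, against 30.7% of all genes, and DESeq2 called none either. The median log2 fold change was -0.24. Without replicate 1 of the 8 h group, or without replicate 4 of the uninduced group, 2 members were called.

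WT seedlings, which have no transgene, gave 2 calls at each time. At 3 h ATMG00040 and ATMG01360 were lower among 19 members, 10.5%, against 23.5% of all 19740 genes and 10.5% that were called lower. Without replicate 4 of the 3 h group 3 members were called. ATMG00040 had 4, 6, 8 and 5 counts at 3 h against 13, 12, 17 and 16 counts uninduced, a log2 fold change of -1.24 ± 0.34 (SE, edgeR adjusted p = 0.0250). It passed the filter through uninduced libraries alone and could only appear as lower, and without the filter its adjusted p was 0.0426. ATMG01360 had 15, 17, 16 and 16 counts against 32, 32, 21 and 33 counts, a log2 fold change of -0.79 ± 0.24 (SE, edgeR adjusted p = 0.0378). Neither gene overlapped between the groups, at an exact permutation p of 0.0286 each, the smallest that 4 against 4 libraries can give. The ATMG00040 call was lost without uninduced replicate 3 or 4 (adjusted p = 0.0735 and 0.0693) or 3 h replicate 1 or 2 (adjusted p = 0.0684 and 0.0603). The ATMG01360 call was lost without uninduced replicate 1, 2 or 4 (adjusted p = 0.0890, 0.0718 and 0.101) or 3 h replicate 1, 2 or 3 (adjusted p = 0.0879, 0.0779 and 0.0912).

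At 8 h in WT, ATMG01360 and ATMG01390 were lower among 21 members, 9.52%, against 33.7% of all 19835 genes and 15.2% that were called lower. ATMG01360 had 20, 15, 13 and 23 counts at 8 h against the same uninduced libraries, a log2 fold change of -0.86 ± 0.26 (SE, edgeR adjusted p = 0.0293), again without overlap. ATMG01390 was at 67.1 ± 7.08 CPM against 86.5 ± 9.43 CPM (SD, n = 4 each), a log2 fold change of -0.36 ± 0.11 (SE, edgeR adjusted p = 0.0270). Here the groups met, since 8 h replicate 2 stood at 77.2 CPM and uninduced replicate 3 at 77.0 CPM, and the exact permutation p was 0.0571. The ATMG01360 call was lost without uninduced replicate 1, 2 or 4 (adjusted p = 0.0781, 0.0570 and 0.0786) or 8 h replicate 2 or 3 (adjusted p = 0.0664 and 0.0708). The ATMG01390 call was lost without uninduced replicate 1, 2 or 4 (adjusted p = 0.0502, 0.0687 and 0.0537) or 8 h replicate 1, 3 or 4 (adjusted p = 0.0541, 0.0655 and 0.0658).

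The sign was shared more widely than the calls. In WT, 16 of 19 members at 3 h and 20 of 21 at 8 h had a log2 fold change under 0, against 50.0% and 48.5% of all genes. The medians were -0.47 and -0.37, against 0.00 and 0.02 over all genes. Of the members tested, 14 had at least 10 counts in every 3 h library, and 14 in every 8 h library, against 17 in every uninduced library in each comparison. At 3 h 5 of 19 members were lower without overlap, against 12.9% of all genes, and at 8 h 2 of 21, against 16.9%. The share of members called lower was at or below that of all genes at both times, while nearly all members lay on the same side. These comparisons share the uninduced libraries, and so do the signs at 3 h and at 8 h.

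In XVE:EPFL4 no member was called at 3 h among 16 tested, against 34.0% of all 19969 genes, nor at 8 h among 18, against 35.8% of all 19990 genes. By edgeR 3 and 1 members had an unadjusted p under 0.05, against 43.3% and 45.0% of all genes, and DESeq2 called 0 at 3 h and 1 at 8 h. The closest were ATMG00650 at 3 h (log2 fold change 1.06, edgeR adjusted p = 0.0655) and ATMG01390 at 8 h. ATMG00650 had 14, 24, 16 and 18 counts at 3 h and 8, 3, 5 and 13 counts uninduced, so in this line the induced libraries had more counts. It passed the filter through these induced libraries and could hardly appear as lower. ATMG01390 was at 62.5 ± 13.02 CPM at 8 h and 80.1 ± 2.21 CPM uninduced (SD, n = 4 each), a log2 fold change of -0.38 ± 0.14 (SE, edgeR adjusted p = 0.0579), and the groups did not overlap. The median log2 fold change of the members was -0.03 at 3 h and 0.14 at 8 h. Single libraries changed the counts, as 2 members were called at 3 h without uninduced replicate 4 and 1 without uninduced replicate 1. At 8 h 2 members were called without replicate 1 of the 8 h group and 1 without uninduced replicate 3.

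**Figure D4:**
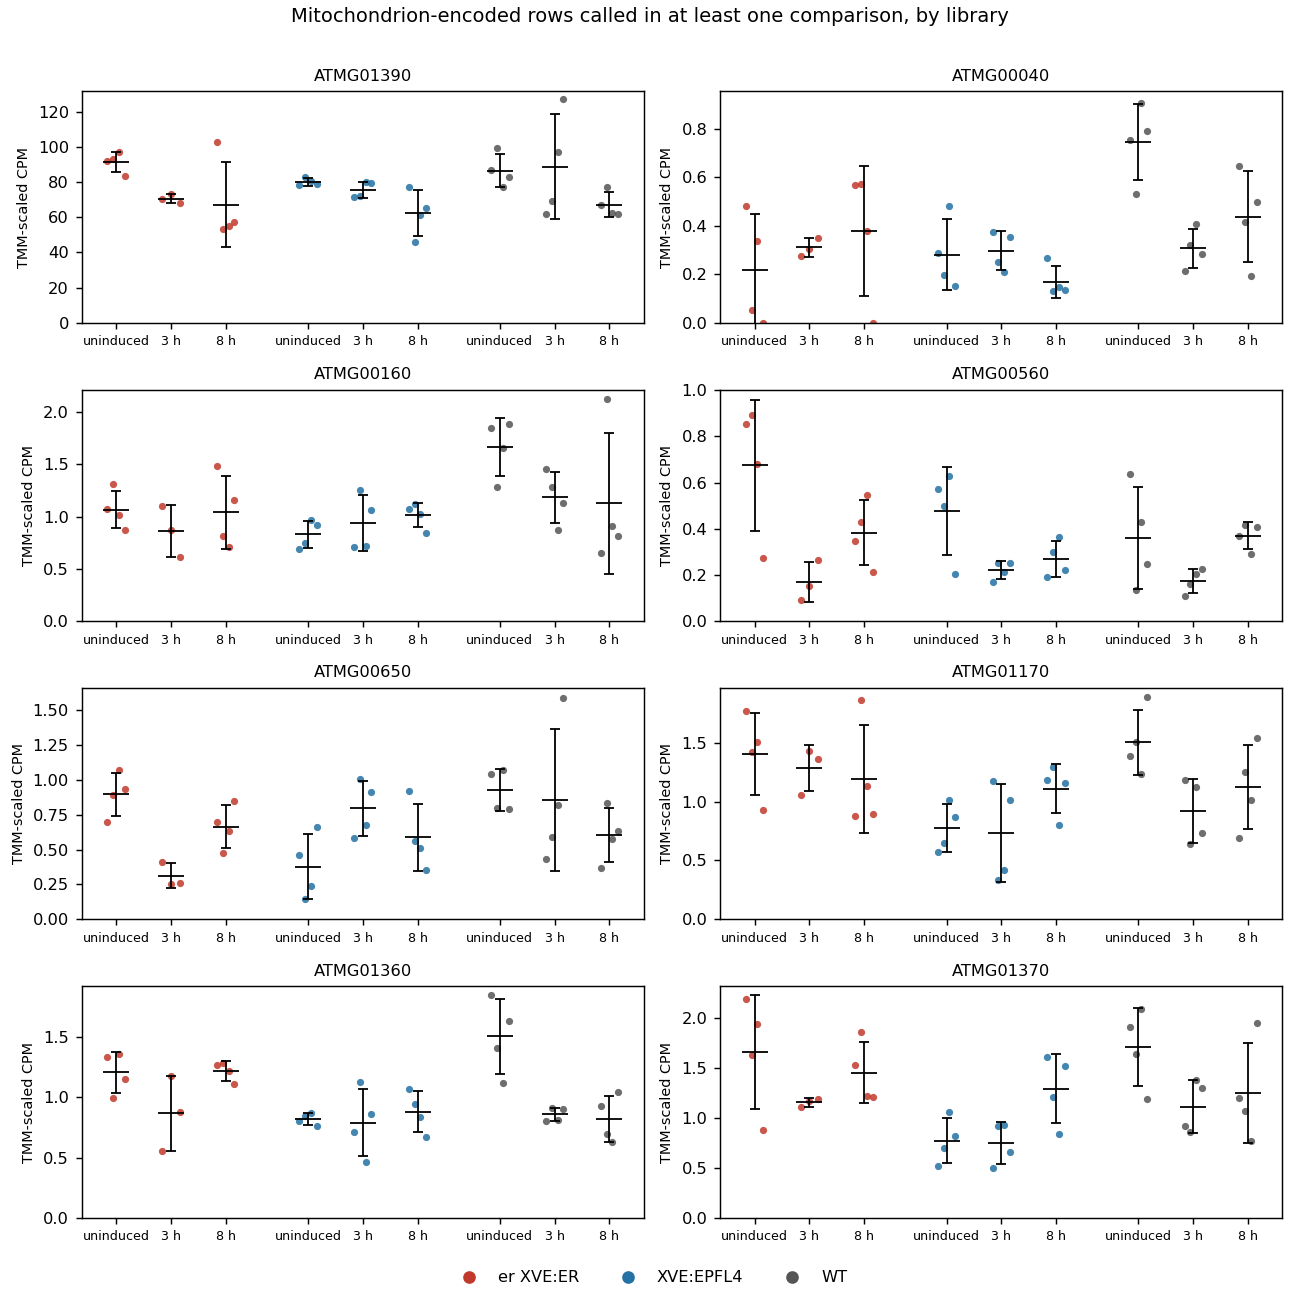
Level of the 8 ATMG genes called in at least 1 pairwise comparison, as TMM-scaled CPM, in *er* XVE:ER (red), XVE:EPFL4 (blue) and WT (grey). Points are libraries, and bars give the mean and SD of 3 or 4 libraries, cut at 0. ATMG00650 lies at 0.311 CPM on average in *er* XVE:ER at 3 h against 0.896 CPM uninduced, and ATMG00160, ATMG01170 and ATMG01370 are lower in uninduced XVE:EPFL4 than in uninduced WT.

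The largest group of calls between lines lay before induction. In uninduced XVE:EPFL4 seedlings 3 of 19 members were lower than in uninduced WT and none higher, 15.8%, against 9.93% of all 19795 genes and 4.0% that were called lower. ATMG01370 had 9, 14, 22 and 16 counts in XVE:EPFL4 against 33, 37, 39 and 24 counts in WT, at 0.773 ± 0.229 CPM against 1.71 ± 0.391 CPM (SD, n = 4 each), and a log2 fold change of -1.10 ± 0.29 (SE, edgeR adjusted p = 0.0291). ATMG00160 had 12, 15, 20 and 18 counts against 32, 29, 31 and 38 counts, a log2 fold change of -0.98 ± 0.25 (SE, edgeR adjusted p = 0.0266). ATMG01170 had 10, 13, 21 and 17 counts against 24, 34, 23 and 38 counts, a log2 fold change of -0.93 ± 0.27 (SE, edgeR adjusted p = 0.0485). None of the 3 overlapped, at an exact permutation p of 0.0286 each, the smallest possible.

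Below the threshold stood ATMG01360, ATMG00040 and ATMG00650, with log2 fold changes of -0.85, -1.36 and -1.27 and edgeR adjusted p of 0.0502, 0.0514 and 0.0655. These did not overlap either. ATMG00040 and ATMG00650 stood at 0.281 ± 0.146 and 0.378 ± 0.230 CPM in uninduced XVE:EPFL4 (SD, n = 4 each), on average under 10 counts per library. Both therefore passed the filter through WT and could only appear as lower. In all, 18 of the 19 members had a log2 fold change under 0, against 50.1% of all genes, with a median of -0.76 against 0.00 over all genes, and 9 of 19 were lower without overlap, against 8.18% of all genes. The WT libraries here are also the reference of the WT time comparisons, so these signs are not independent of those. Of the 19, 8 had at least 10 counts in every XVE:EPFL4 library and 17 in every WT library, so that part of the list could pass the filter through WT. The 3 genes with the most counts, which pass in every group, had smaller differences that were not called. Their log2 fold changes were -0.10 for ATMG01390, -0.23 for ATMG00020 and -0.10 for ATMG00030, with edgeR adjusted p of 0.541, 0.364 and 0.786.

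No call of this comparison held without every library. ATMG01370 was lost without WT replicate 1 or 3 (adjusted p = 0.0613 and 0.0951) or XVE:EPFL4 replicate 1, 2 or 4 (adjusted p = 0.0849, 0.0842 and 0.0515). ATMG00160 was lost without WT replicate 1, 3 or 4 (adjusted p = 0.0605, 0.0688 and 0.0849) or XVE:EPFL4 replicate 1 or 2 (adjusted p = 0.0775 and 0.0794). ATMG01170 was lost without WT replicate 1, 2, 3 or 4 (adjusted p = 0.0690, 0.0851, 0.0724 and 0.154) or XVE:EPFL4 replicate 1, 2 or 4 (adjusted p = 0.128, 0.133 and 0.0717). Without XVE:EPFL4 replicate 3, in contrast, 6 members were called.

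After induction the lines did not differ in any member by the test. XVE:EPFL4 against WT gave no call at 3 h among 16 members, against 6.11% of all 19863 genes, and none at 8 h among 18, against 0.00503% of all 19868 genes. *er* XVE:ER against WT gave none uninduced among 23 members, at 3 h among 17 or at 8 h among 20, against 0.0861%, 0.0501% and 0.0253% of all genes. In these 5 comparisons edgeR gave 1, 0, 2, 2 and 0 members at an unadjusted p under 0.05, in the order given, against 24.2%, 6.84%, 6.37%, 8.08% and 6.23% of all genes, and DESeq2 called none. ATMG00040 in uninduced *er* XVE:ER had 9, 1, 7 and 0 counts against 13, 12, 17 and 16 counts in WT, without overlap, and an edgeR unadjusted p of 0.0247 and adjusted p of 0.756. ATMG00650 at 3 h had 9, 5 and 6 counts in *er* XVE:ER against 8, 11, 16 and 28 counts in WT, without overlap once scaled, and an edgeR adjusted p of 0.557. In these comparisons ATMG00040 and ATMG00650 passed the filter through WT libraries alone and could only appear as lower. The direction of their differences is therefore not informative.

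The responses to induction were also compared between lines as a difference of log2 fold changes, which is the test of whether a change was particular to a line. No member was called among 25 and 26 tested for *er* XVE:ER minus WT at 3 h and 8 h, against 0.00981% and 0.00985% of all genes, nor among 23 and 24 for XVE:EPFL4 minus WT, against 2.06% and 0.157%. By edgeR 2, 1, 1 and 5 members had an unadjusted p under 0.05, against 3.88%, 4.53%, 15.3% and 10.7% of all genes, and DESeq2 called 0, 0, 0 and 1. The median difference of the members was 0.49 at 3 h and 0.40 at 8 h for XVE:EPFL4 minus WT, and -0.23 and 0.21 for *er* XVE:ER minus WT. The XVE:EPFL4 and WT responses use the uninduced groups that differed above, and the part of that in these medians was not tested.

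Nuclear genes for the respiratory complexes and the ATP synthase were set beside these values. Most of the ATMG genes tested have no name or role here, so they are not shown to belong to these complexes. Of 19 nuclear-encoded respiratory and ATP synthase subunits, all of which passed the filter, 0 were called in *er* XVE:ER at 3 h and in WT at 3 h, against 16.3% and 23.5% of all genes. In each of the other 4 time comparisons 1 was called, against 16.2% of all genes in *er* XVE:ER at 8 h, 34.0% and 35.8% in XVE:EPFL4 at 3 h and 8 h and 33.7% in WT at 8 h. *CYTC-2*, a cytochrome *c* gene, was lower at 8 h in *er* XVE:ER (log2 fold change -0.63 ± 0.18, edgeR adjusted p = 0.0416) and in XVE:EPFL4 (-0.65 ± 0.10, edgeR adjusted p = 0.000826). AT5G08690, an ATP synthase β subunit gene, was higher in WT at 8 h (0.32 ± 0.10, edgeR adjusted p = 0.0345), and *SDH2-1*, a subunit of succinate dehydrogenase, was higher in XVE:EPFL4 at 3 h (0.17 ± 0.06, edgeR adjusted p = 0.0439). Errors in this paragraph and the next are SE. Of these 4 calls, that of *CYTC-2* in XVE:EPFL4 held without any 1 library, and the others were lost in 5 or 6 of the 8 fits that leave 1 out. Their highest adjusted p were 0.103 for *CYTC-2* (without *er* XVE:ER 8 h replicate 2), 0.0926 for AT5G08690 (without uninduced WT replicate 4) and 0.135 for *SDH2-1* (without XVE:EPFL4 3 h replicate 1). None of the 19 was called between lines, against 0.00503% to 9.93% of all genes.

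Of 10 nuclear genes for mitochondrial RNA polymerases, nucleases, maturases and helicases, 0 to 5 were called in a time comparison, against 16.2% to 35.8% of all genes. In WT 4 of 10 were lower at 3 h, with the largest fall in *PMH1*, an RNA helicase (log2 fold change -0.59 ± 0.09, edgeR adjusted p = 0.00172), while at 8 h 4 were higher, led by the maturase *nMAT1* (0.69 ± 0.14, edgeR adjusted p = 0.00527), and 1 lower, the maturase AT5G04050 (-0.47 ± 0.16, edgeR adjusted p = 0.0476). In *er* XVE:ER 2 were lower at 3 h, AT5G04050 the most (-0.65 ± 0.19, edgeR adjusted p = 0.0402), and 0 called at 8 h. In XVE:EPFL4 1 was higher and 2 lower at 3 h, and 5 were higher at 8 h, led at both times by AT5G15700, an organellar RNA polymerase (0.40 ± 0.10 and 0.84 ± 0.16, edgeR adjusted p = 0.00750 and 0.00221). The largest fall at 3 h was in *MGP3*, the mitochondrial RNA polymerase (-0.34 ± 0.08, edgeR adjusted p = 0.00297). In uninduced XVE:EPFL4 against WT 1 was lower, the maturase AT5G46920 (-0.34 ± 0.09, edgeR adjusted p = 0.0353), and at 3 h 2 were higher, led by AT5G14580, a polynucleotide phosphorylase (0.62 ± 0.12, edgeR adjusted p = 0.0227). The shares of all genes called between these lines were 9.93% uninduced and 6.11% at 3 h. Between the responses of XVE:EPFL4 and WT at 3 h *PMH1* differed (0.66 ± 0.11, edgeR adjusted p = 0.00531). With 1 library left out, both AT5G04050 calls, AT5G46920 and AT5G14580 were lost in 4 to 7 fits each. Their highest adjusted p were 0.102 for AT5G04050 in WT (without uninduced replicate 3), 0.161 in *er* XVE:ER (without 3 h replicate 4), 0.115 for AT5G46920 (without WT replicate 3) and 0.0895 for AT5G14580 (without XVE:EPFL4 replicate 4). The other calls named here held without any 1 library, though that of *nMAT1* was lost with all libraries numbered 4 left out (adjusted p = 0.0506).

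Among genes of alternative respiration and mitochondrial stress, 4 of 7 passed the filter in the time comparisons. *AOX1A*, the alternative oxidase that rises when the cytochrome pathway is limited, was higher at 3 h in every line, with a log2 fold change of 0.52 ± 0.14 in *er* XVE:ER, 0.72 ± 0.07 in XVE:EPFL4 and 0.66 ± 0.16 in WT (SE, edgeR adjusted p = 0.0245, 3.13e-06 and 0.0138). It was also lower in uninduced XVE:EPFL4 than in uninduced WT (-0.42 ± 0.10, edgeR adjusted p = 0.0150). At 3 h against uninduced, 2, 3 and 1 of the 4 genes were higher in the same order of lines and none lower. The shares of all genes called were 16.3%, 34.0% and 23.5%. At 8 h 3 were higher and 1 lower in XVE:EPFL4, against 35.8% of all genes called. These were led by AT2G21640 (1.13 ± 0.16, edgeR adjusted p = 0.000404) and by *NDB2*, an alternative NADH dehydrogenase (-0.61 ± 0.20, edgeR adjusted p = 0.0370). In WT 1 was higher, the mitochondrial chaperone *MTHSC70-2* (0.53 ± 0.16, edgeR adjusted p = 0.0266), and in *er* XVE:ER 0 were called, against 33.7% and 16.2% of all genes. *AOX1A* at 3 h held without any 1 library in XVE:EPFL4 and WT and was lost in 4 of 7 such fits in *er* XVE:ER, with an adjusted p of 0.120 without 3 h replicate 2. Its call in uninduced XVE:EPFL4 against WT was lost in 3 of 8, with an adjusted p of 0.0548 without WT replicate 3. *NDB2* and *MTHSC70-2* were lost in 5 of 8 fits each, with adjusted p up to 0.106 (without uninduced XVE:EPFL4 replicate 2) and 0.0624 (without uninduced WT replicate 1), and AT2G21640 held in all 8.

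The organ markers moved with time as well. At 8 h the leaf marker *LHCB2.1*, a light-harvesting protein of the chloroplast, was lower in *er* XVE:ER, XVE:EPFL4 and WT, with log2 fold changes of -2.03 ± 0.55, -2.55 ± 0.60 and -3.54 ± 0.55 (SE, edgeR adjusted p = 0.0327, 0.00749 and 0.00117), and in all 2, 3 and 2 of the 4 leaf markers and 1, 4 and 1 of the 4 root markers were lower, against 16.2%, 35.8% and 33.7% of all genes called. Uninduced XVE:EPFL4 had 0 of 4 leaf markers called against WT, and 1 of 4 root markers, *RHD6*, higher (0.68 ± 0.18, edgeR adjusted p = 0.0332), and at 3 h 1 root marker, *SHV2*, was higher (0.47 ± 0.12, edgeR adjusted p = 0.0464). The shares of all genes called between these lines were 9.93% uninduced and 6.11% at 3 h. At 3 h against uninduced 0, 3 and 1 of the 4 leaf markers were lower in *er* XVE:ER, XVE:EPFL4 and WT, and 0, 1 and 1 of the 4 root markers. The shares of all genes called were 16.3%, 34.0% and 23.5%. *LHCB2.1* held without any 1 library in XVE:EPFL4 and WT and was lost in 6 of 8 such fits in *er* XVE:ER, with an adjusted p of 0.0708 without 8 h replicate 2. *RHD6* and *SHV2* between lines were lost in 6 and 7 of 8 fits, with adjusted p up to 0.110 (without XVE:EPFL4 replicate 2) and 0.131 (without XVE:EPFL4 replicate 1). The part of organ composition in the ATMG values was not tested.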

How the data were processed

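RNA-seq libraries of 35 seedling samples were read from raw count files, 1 per library. The authors deposited counts of reads per gene, made by mapping to TAIR10 with STAR 2.7.11a and counting on an Ensembl Plants annotation. Strand setting and the treatment of reads that map to several places are not given in the sources used here. Libraries held 18224765 to 25089853 counts.

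Groups were taken from the sample labels. CPM of all counts gave shares. Genes were tested with edgeR 4.0.16 (R 4.3.3) by the quasi-likelihood test with TMM scaling, on the groups compared (the *er* XVE:ER 3 h fit also held uninduced WT, as the study analysed these libraries together), after filterByExpr with a minimum count of 10, and called at an adjusted p under 0.05. Alternatives were DESeq2 1.42.0, its size factors, no filter, all 35 libraries in 1 fit, a replicate block, only the groups compared in the *er* XVE:ER 3 h fit, no libraries numbered 4 and each library left out. The script was tested on simulated data. The labels number the replicates, which the study's methods call biological repeats, and p-values measure the spread between these libraries.

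Nuclear copies were found as exact windows of 150 bases and by BLAST+ 2.17.0 in RefSeq TAIR10.1, which was not shown to hold the mitochondrial sequence used for mapping. Differences between copies were read from these alignments. Genes named were the members making up 80% of the ATMG counts, every member called (at most 6 per comparison), and the largest called rise and fall of each nuclear list. ATMG00030, ATMG00660, the pairs with chromosome 2 and members just past the threshold were chosen after their values were seen. The members and lists were chosen with earlier results of these data known.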

Additional observations from a re-analysis of the deposited data

Results flagged for a closer look

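Of 96 groups of 4 libraries examined for a library far from the others, over 12 measures, 4 held such a library, and chance gives about 1 in 20 groups. The summed share of ATMG genes outside the leading 3 was 23.9 CPM in WT 3 h replicate 4, beside 19.0 to 19.4 CPM in the other replicates. It was 19.6 CPM in uninduced *er* XVE:ER replicate 4, beside 27.1 to 28.0 CPM. Both libraries also stood apart from their groups over all genes. ATMG01390 was at 103.1 CPM after TMM scaling in *er* XVE:ER 8 h replicate 1, beside 53.4 to 57.5 CPM. ATMG00040 was at 0.2675 CPM after TMM scaling in XVE:EPFL4 8 h replicate 1, beside 0.129 to 0.146 CPM, which rests on 7 counts against 3 or 4.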

How the results depend on the processing

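The 12 ratios of ATMG shares moved by less than the spread between replicates under every alternative (nuclear counts or TMM-scaled library sizes below the line, without ATMG01390, only the members that passed the filter, without libraries numbered 4), and no called change reversed. The counts of members called were small and moved. For WT at 3 h the count of 2 became 1 with DESeq2, without the filter and with all 35 libraries, and 0 with the replicate block. For WT at 8 h the count of 2 became 4 with DESeq2 and without the filter, and 0 without libraries numbered 4. For *er* XVE:ER at 8 h the count of 0 became 2 with all 35 libraries and 1 without libraries numbered 4. For XVE:EPFL4 the count of 0 at 3 h became 1 with the replicate block and without libraries numbered 4, and that at 8 h became 1 with DESeq2 and with all 35 libraries. For uninduced XVE:EPFL4 against WT the count of 3 became 1 with all 35 libraries and 0 with the replicate block. For the difference of the 8 h responses of XVE:EPFL4 and WT DESeq2 gave 1. With each library left out the counts ran from 0 to 3 (WT 3 h), 0 to 2 (WT 8 h), 1 to 5 (*er* XVE:ER 3 h), 0 to 2 (*er* XVE:ER 8 h and XVE:EPFL4 at 3 h and 8 h) and 0 to 6 (uninduced XVE:EPFL4 against WT), and stayed at 0 in the other comparisons. The causes were not tested, beyond the fewer libraries that a left-out fit holds.

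Deviations from the group means correlated over all genes by -0.47 to 0.27 between libraries of the same replicate number. No comparison had every correlation over 0.1, and in none did every library correlate best with its own number. Of 46 pairs, 10 correlated best with their own number. With so few libraries per group, these criteria cannot exclude that the numbers pair the libraries. The replicate block changed the count of ATMG calls as given and that of all genes in XVE:EPFL4 against WT at 3 h to 382 from 1213. With a median of 2 counts per library for a kept member, changes of most ATMG genes were not detectable at this depth.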
